A study of Caenorhabditis elegans with 2 samples.

Results

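HLH-8 occupancy at autosomal protein-coding promoters was described from chromatin immunoprecipitation sequencing (ChIP-seq) peaks of Caenorhabditis elegans embryos. A peak was taken if the authors' optimal list held it on chromosome I, II, III, IV or V, if the annotated 5′ end of a protein-coding transcript lay at most 500 bp downstream or 200 bp upstream of its summit, seen along the gene, and if that summit was more than 200 bp from any tRNA or snoRNA gene. The optimal list is what the authors' irreproducible discovery rate (IDR) step kept of 25904 candidate peaks called on both replicates together. Of its 1120 peaks 870 were autosomal, 438 of those had a summit in a promoter window, and 423 remained after 15 beside tRNA or snoRNA genes were left out. The 423 were 7.81% of the 5418 pooled candidates in the same windows, against 4.32% of all pooled candidates.

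Both biological replicates were whole hermaphrodite late embryos of strain OP63, collected 3.5 hours after synchronisation by egg bleaching. They shared 1 transgenic line, in which HLH-8 carries a GFP-FLAG tag at its C terminus, and chromatin sheared by microtip sonication was precipitated with an antibody against GFP. The labels and files used here do not name the promoter that drives the transgene. Untagged embryos and control libraries were not analysed here. Strong occupancy in few cells and weak occupancy in many cannot be told apart in whole embryos. With 1 group there is no contrast between conditions: sites were compared with other sites, with flanking sequence and between the replicates, as descriptions without a p-value.

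HLH-8 is the worm's Twist-family basic helix-loop-helix factor, known for patterning the postembryonic mesoblast lineage and for the development of vulval, uterine and enteric muscles. It binds DNA with the E protein HLH-2, and dimers of this family recognise E-boxes, words of the form CANNTG. Genes in this compact genome often lie head to head, so that a single short gap is the promoter of both, called divergent here. Many worm transcripts are trans-spliced, and their annotated 5′ ends may lie downstream of the true start.

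The sequences below carry the comparisons that follow, and all come from peaks on chromosomes II to V with a summit outside exons. Among those peaks they are the strongest divergent and the strongest single peak, the 6 strongest with the word TGGCCTAG, the 4 strongest with the E-boxes CAGATG or CACATG, a second peak with CATATG besides sluh-7, and a divergent peak with GAGAGA. They are the RefSeq sequence of WBcel235, the assembly also called ce11, within 50 bp of the summit, cut short where an exon begins, with 1-based coordinates. Each reads 5′ to 3′ on the strand of the nearest gene, and words were searched on both strands. In the opening pair capitals mark any E-box or TGGCCTAG, and no letter of the peak between ears-2 and uncp-18 is marked.
ears-2/uncp-18 (chrIV:390469-390539, minus strand): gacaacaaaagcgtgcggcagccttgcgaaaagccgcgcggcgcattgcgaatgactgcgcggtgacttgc
atx-2 (chrIII:10461279-10461379, plus strand): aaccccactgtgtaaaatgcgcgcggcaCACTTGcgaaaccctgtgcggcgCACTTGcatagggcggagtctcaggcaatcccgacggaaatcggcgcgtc
In the next 6 capitals mark TGGCCTAG or its reverse complement CTAGGCCA. At sluh-7 the word overlaps a CATATG, whose last 2 letters are its first 2.
pfd-5 (chrIII:7199008-7199108, minus strand): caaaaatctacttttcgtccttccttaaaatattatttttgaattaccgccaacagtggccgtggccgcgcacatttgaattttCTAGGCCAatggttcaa
C47E8.4/hsp-90 (chrV:14685693-14685793, minus strand): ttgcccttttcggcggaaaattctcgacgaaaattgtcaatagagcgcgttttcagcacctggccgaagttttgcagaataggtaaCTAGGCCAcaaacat
sluh-7 (chrV:10356093-10356193, minus strand): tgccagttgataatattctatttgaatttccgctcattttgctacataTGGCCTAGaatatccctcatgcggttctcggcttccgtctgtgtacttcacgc
C49A9.10 (chrIV:6206538-6206638, minus strand): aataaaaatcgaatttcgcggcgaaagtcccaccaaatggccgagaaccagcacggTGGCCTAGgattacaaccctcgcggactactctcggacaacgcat
eas-1 (chrII:4740114-4740214, plus strand): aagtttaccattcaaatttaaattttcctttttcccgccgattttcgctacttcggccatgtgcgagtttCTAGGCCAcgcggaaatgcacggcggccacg
mog-3 (chrIII:5308387-5308487, plus strand): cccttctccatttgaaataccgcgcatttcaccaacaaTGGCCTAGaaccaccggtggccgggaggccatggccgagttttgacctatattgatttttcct
In the following 4 capitals mark CAGATG or CACATG or their reverse complements CATCTG and CATGTG.
mrck-1 (chrV:6267638-6267694, minus strand): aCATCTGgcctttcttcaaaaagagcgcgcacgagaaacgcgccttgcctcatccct
C16C10.4/rnf-121 (chrIII:4171136-4171236, plus strand): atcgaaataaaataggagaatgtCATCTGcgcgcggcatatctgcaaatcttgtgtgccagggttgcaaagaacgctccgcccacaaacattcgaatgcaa
atad-3 (chrII:10248505-10248605, plus strand): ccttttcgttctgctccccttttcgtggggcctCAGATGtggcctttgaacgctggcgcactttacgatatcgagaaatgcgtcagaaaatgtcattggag
ccch-1 (chrV:11532251-11532311, plus strand): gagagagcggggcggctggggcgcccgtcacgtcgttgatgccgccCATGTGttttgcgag
Capitals mark CATATG in the sequence of Y32B12B.4, and in that of tag-267 with tag-266 they mark GAGAGA read on the other strand.
Y32B12B.4 (chrV:16553121-16553221, plus strand): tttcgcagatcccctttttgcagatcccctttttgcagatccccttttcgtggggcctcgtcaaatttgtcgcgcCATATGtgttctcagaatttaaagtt
tag-267/tag-266 (chrIII:640544-640644, plus strand): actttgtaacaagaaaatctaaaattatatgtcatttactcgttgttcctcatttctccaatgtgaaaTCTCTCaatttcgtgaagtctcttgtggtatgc

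All 423 promoter peaks had a candidate summit within 200 bp in each replicate. The deposited signal value of a peak, whose unit the labels do not give, ran from 57.4 to 317 in the pooled list with a median of 83.8. It ran from 10.8 to 160.2 in replicate 1, with a median of 38.6, and from 17.1 to 166 in replicate 2, with a median of 46.99. The pooled median was 76.4 at the 358 autosomal optimal peaks outside promoters and away from tRNA and snoRNA genes, and 70.3 at the 71 X chromosome promoter peaks chosen by the same rule. Of the promoter peaks 238 (56.3%) were among the 560 strongest optimal peaks, against 44.1% of the autosomal peaks outside promoters. In replicate 1 alone 348 were matched by one of the 1120 strongest candidates, in replicate 2 357, in both 291 (68.8%) and in neither 9.

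Replicate 2 had the higher signal at 294 of the 423 peaks. Over the peaks, log2 of the replicate 2 signal over the replicate 1 signal was 0.22 in the median, with an SD of 0.50. The labels do not say whether signal was scaled for depth. Across the 423 sites, which share 2 libraries and were chosen on the pooled signal, Spearman's rho between the replicates was 0.579 and Pearson's r of the log2 signals was 0.623, or 0.605 without the 2 sites farthest from the replicate 1 median. The peaks that differed most were at pak-2, which encodes a p21-activated kinase, with 17.2 in replicate 1 and 77.3 in replicate 2, at the divergent promoter of Y55F3AR.2 and the chaperonin gene cct-8, with 10.8 and 45.1 in that order, and at F56H9.2, with 19.6 in replicate 1 and 63.5 in replicate 2. In the other direction unc-94, which encodes a tropomodulin, had 42.3 in replicate 1 and 17.1 in replicate 2. The histone H1 gene hil-7 had 45.3 in replicate 1 and 19.1 in replicate 2, and the divergent pair Y92H12BR.3 and Y92H12BR.2 had 68.1 in replicate 1 and 29.2 in replicate 2.

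**Figure D1:**
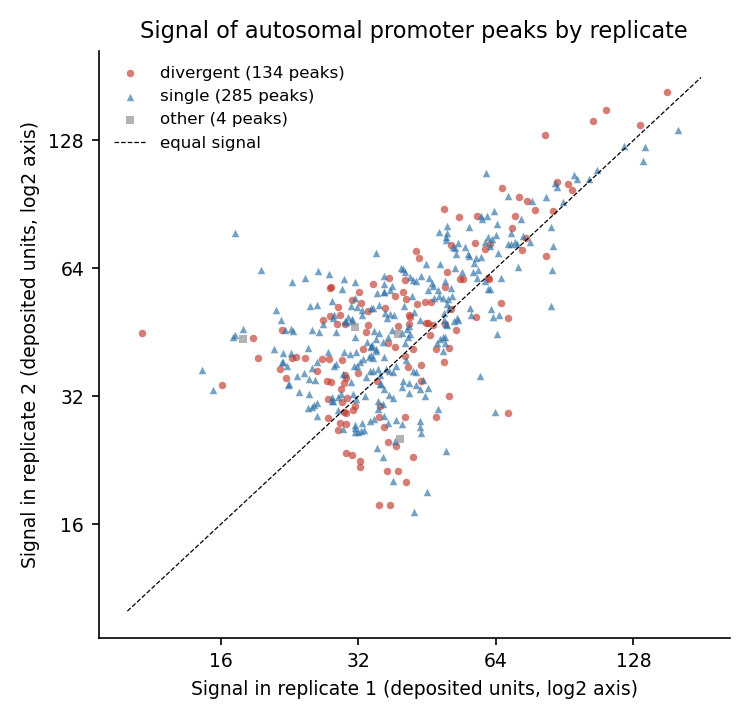
Deposited signal of each of the 423 autosomal promoter peaks in replicate 1 (horizontal, log2 axis) and replicate 2 (vertical, log2 axis), coloured by promoter class. The divergent and single peaks cover the same range, the strongest lie close to the line of equal signal, and 294 peaks lie above it.

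Promoter peaks sat upstream of genes. Their summits were a median of 166 bp upstream of the nearest 5′ end in the window (quartiles 98 and 263.5 bp), and 406 lay at or upstream of it. Only 17 (4.02%) lay downstream, against 1318 (26.4%) of the 4995 other pooled candidates that the same windows held, whose median was 122 bp upstream. By annotation 348 summits lay between genes, 47 in introns and 28 in exons. The most common width was 444 bp, at 287 peaks, and 7 neighbouring pairs had summits closer together than that, so these are not separate sites with certainty. The summits nearest to the window's edges were those of mff-2 at 500 bp and hlh-11 at 499 bp upstream, inside, and of lin-59 at 506 bp and F38E11.9 at 509 bp, outside. Their signals were 80.8 and 85.99 inside and 122 and 66.2 outside. At the downstream edge the nearest inside was D2045.9 at 143 bp and the nearest outside sec-61.A at 202 bp, and at the small RNA edge the nearest inside was zip-2 at 215 bp and the nearest outside Y7A9D.1 at 165 bp.

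Divergent promoters made up 134 of the 423 peaks (31.7%, exact 95% interval 27.3 to 36.4). A peak was called divergent when its summit was in the window of a minus-strand gene and of a plus-strand gene to its right, single when it was in the window of 1 gene, and other when several windows overlapped without facing apart. Single promoters were 285 (67.4%, 62.7 to 71.8). The 4 others lay at clec-140 with hmg-11, tub-2 with Y71G12A.5, egl-30 with C53H9.4, and unc-60 with F53E2.2, which share a 5′ end. Of the other candidates in the same windows 11.5% (10.6 to 12.4) were divergent, of the 2238 in the weaker part of the pooled list, split at its median rank, 7.19%, and of all bases of autosomal promoter windows 5.73%. On the X chromosome 2 of 71 promoter peaks (2.82%, 0.343 to 9.81) were divergent, where 1.59% of window bases are. Intervals of this kind cover counting error only, since neighbouring sites of 1 pair of libraries are not independent.

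The replicates gave the same picture separately. Among the 1120 strongest candidates of each, 32.8% of 408 promoter candidates were divergent in replicate 1 and 29.9% of 415 in replicate 2 (31.4% ± 2.10, SD, n = 2). Among their remaining promoter candidates 11.4% and 11.7% were (11.5% ± 0.157, SD, n = 2), so the gap was far larger than the spread between replicates. Down the pooled list, in bins of 1120 candidates, the divergent share among promoter candidates was 31.7%, 24.4%, 23.7%, 15.8%, 14.9%, 12.8%, 12.05% and 11.2%. On the autosomes taken singly the divergent share of peaks was lowest on chromosome II, at 23 of 92, and highest on chromosome IV, at 24 of 63 (38.1%). The share depends on the window: with 250 bp upstream to 100 bp downstream it was 19.6%, against 6.21% of the other candidates, and with 1000 bp upstream it was 38.3%, against 14.9%. With 5′ ends facing apart within 1000 bp as the definition it was 41.4%, against 17.2%.

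**Figure D2:**
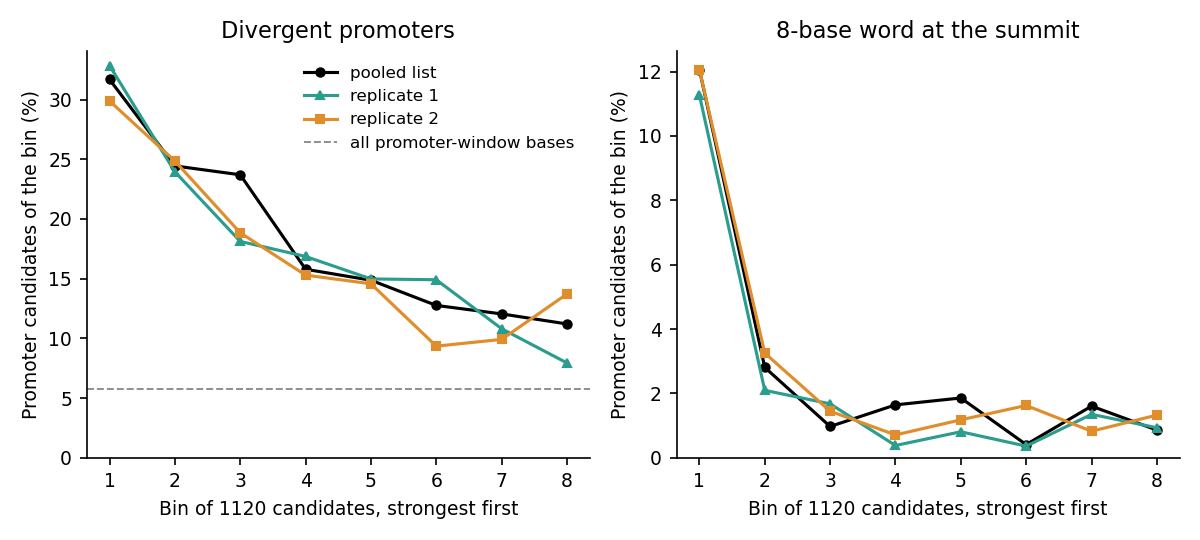
Share of promoter candidates that lie in divergent promoters (left) and that hold TGGCCTAG, the 8-base word, within 50 bp of the summit (right), in bins of 1120 candidates from the strongest down, for the pooled list and each replicate. The divergent share falls from bin to bin in the pooled list, from 31.7% towards the 5.73% of all window bases (dashed). The word, which was picked from the peaks of the leading pooled bin, drops to 2.81% by the next bin.

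In divergent promoters with a peak the 5′ ends of the paired genes were 12 to 901 bp apart, with a median of 404.5 bp (quartiles 283 and 526.5 bp), where the windows allow at most about 1000 bp. The summit lay between both 5′ ends at 126 of the 134, and at 93 of these (73.8%) it lay in the middle 50% of the gap. In gaps over 500 bp both windows overlap only around the centre, so the definition of the class fixes part of that share. Counted from the genes, 175 of 1814 autosomal head-to-head pairs with 5′ ends at most 1000 bp apart held a peak (9.65%, 8.33 to 11.1). For this count a summit could lie anywhere from 200 bp inside either gene to 200 bp inside its partner. It is therefore wider than the divergent class, and the stretch searched grows with the distance. By distance 6.77% of pairs at 1 to 200 bp held a peak, 10.5% at 201 to 400 bp, 11.95% at 401 to 600 bp, 8.84% at 601 to 800 bp and 8.59% at 801 to 1000 bp, and all 5 intervals overlap.

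Divergent and single peaks differed little in signal. The median pooled signal was 83.5 at divergent peaks and 85.2 at single peaks, a log2 difference of -0.03. In replicate 1 the medians were 39.04 at divergent and 38.2 at single peaks, and in replicate 2 they were 46.97 at divergent and 47.4 at single peaks. The log2 difference was therefore 0.03 in replicate 1 and -0.01 in replicate 2 (0.01 ± 0.03, SD, n = 2), so its sign is not settled. They differed in position, which the shared window limits for divergent peaks: the median summit was 138 bp upstream of the nearest 5′ end at divergent and 193 bp at single peaks, and 5 divergent against 73 single peaks (3.73% and 25.6%) lay more than 300 bp upstream. Introns held 4 divergent and 43 single summits.

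**Figure D3:**
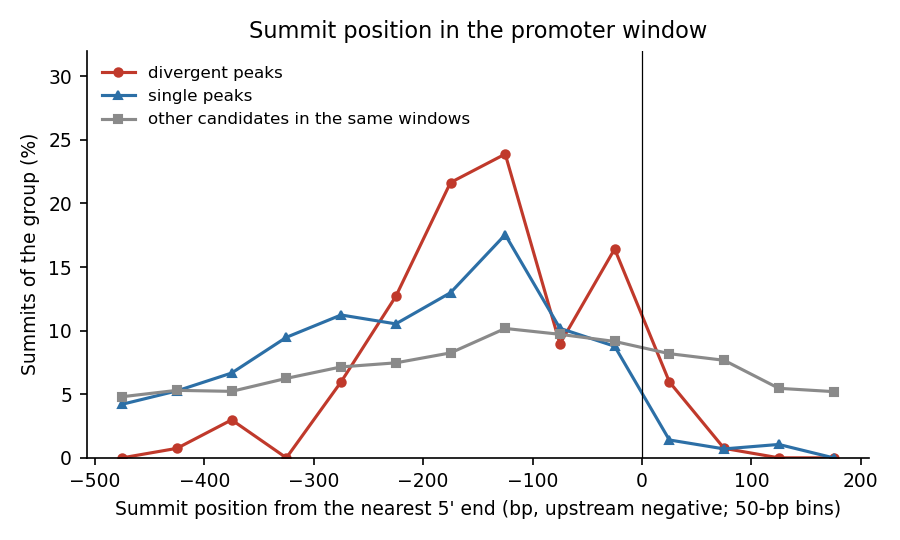
Share of summits in 50-bp bins by distance from the nearest 5′ end of the windows that hold them, for the 134 divergent peaks, the 285 single peaks and the 4995 other candidates in the same windows. Both groups of peaks are highest 101 to 150 bp upstream (23.9% and 17.5%). Divergent peaks drop to 8.96% at 51 to 100 bp upstream and rise again to 16.4% at 1 to 50 bp upstream. From the 5′ end to 49 bp downstream 5.97% of divergent and 1.40% of single peaks are found, and the other candidates continue downstream.

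Of the 20 strongest promoter peaks 8 were divergent and 12 single. The strongest, at chrIV:390304-390646, lay in a gap of 92 bp between ears-2, which encodes a mitochondrial glutamyl-tRNA synthetase, and uncp-18, which encodes a syntaxin-binding protein, with a signal of 317, of 151 in replicate 1 and of 166 in replicate 2. The strongest single peak, at chrIII:10461162-10461493, was 60 bp upstream of atx-2, the ataxin-2 homologue, with 295, 160.2 in replicate 1 and 135 in replicate 2. Other divergent promoters among the 20 joined vps-51, of a vesicle tethering complex, to lin-35, the retinoblastoma homologue (271, with 132 and 139 in replicates 1 and 2), and snx-13, a sorting nexin gene, to snr-1, which encodes the spliceosomal protein Sm D3 (247, with 104 and 142). Y41D4A.4 was paired with Y41D4A.6, whose product is a mitochondrial glutamyl-tRNA amidotransferase subunit (259), chaf-2 with Y71G12B.30 (218), spat-1 with F57C2.5 (195), tag-267 with tag-266 (191), and Y48A6C.4 with sup-35 (181).

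Single promoters among the 20 served genes of metabolism, the nuclear envelope and the ribosome as well as genes known by sequence name. They included idhg-1, a mitochondrial isocitrate dehydrogenase subunit gene, with 266 (136 in replicate 1 and 123 in replicate 2), tasp-1, the taspase homologue, with 248 (134 and 115), and lem-2, which encodes an inner nuclear membrane protein, with 215 (106 and 109). The kinase gene mrck-1 had 213 (103 and 104), rpl-3 had 198 (96.1 and 104) and rps-24, the lowest of the 20, had 174 (86.2 and 102). The others were at W03C9.5 (246), W03H9.2 (198), Y50D4C.5 (190), K10D2.5 (179) and K05C4.2 (176). Of the 20 peaks 5 held any E-box within 50 bp of the summit: atx-2, W03C9.5, mrck-1 and rpl-3 held CAAGTG, mrck-1 also CAGATG, and idhg-1 held CACGTG. None of the 20 held TGGCCTAG.

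Summits were rich in G and C. The mean GC content of the 101-base windows was 46.8% ± 8.25 (SD over 423 windows), against 36.7% ± 8.43 in windows of the same length 500 bp upstream and 38.9% ± 8.63 in those 500 bp downstream. Of the 423 summits 289 (68.3%) were richer than both of their flanks. The other promoter candidates averaged 39.3%, and windows placed 166 bp upstream of all 17242 autosomal protein-coding genes averaged 33.9%. Divergent peaks averaged 44.9% ± 8.40 and single peaks 47.6% ± 8.02 (SD over 134 and 285 windows). The strongest candidates of the replicates averaged 45.9% in replicate 1 and 46.2% in replicate 2. Some of the strongest peaks were far from that mean: lem-2 had 20.8% GC, spat-1 with F57C2.5 22.8% and Y50D4C.5 19.8%.

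E-boxes were more frequent at the summits than beside them for some classes. Of the 10 classes CAAGTG was found within 50 bp of 37 summits (8.75%, 6.23 to 11.9), against 3.78% of upstream and 3.78% of downstream flanks, and 4.21% of all promoters at the matched position. CAGATG was at 36 summits (8.51%, 6.03 to 11.6), against 1.89% of upstream and 5.91% of downstream flanks and 3.41% of all promoters. CACATG was at 29 (6.86%), against 2.84% upstream, 2.60% downstream and 3.38% of all promoters, and CAGCTG at 24 (5.67%), against 2.84%, 2.36% and 1.72% in the same order. CATATG, the class known from HLH-8 target promoters, was at 9 summits (2.13%), against 1.89% of upstream and 3.31% of downstream flanks and 1.79% of all promoters. Counts depend on the window: within 25 bp CAGATG was at 4.97% and CACATG at 4.49% of summits, and within 100 bp CACATG was at 10.4% and CATATG at 4.49%. With flanks 1000 bp away the upstream flank held CAGATG at 6.15%. Any E-box was at 192 summits (45.4%), against 30.02% upstream, 32.9% downstream and 30.6% of all promoters. Of the 4995 other promoter candidates 4.46% held CAAGTG, 6.15% CAGATG, 3.94% CACATG, 2.70% CAGCTG, 1.62% CATATG and 33.3% any E-box. Their CAGATG share lies inside the interval of the summits. Summits are richer in GC than all of these, and its part in the differences was not tested.

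The E-box classes that lead the optimal peaks elsewhere were sparser in autosomal promoters. CAGATG or CACATG was at 63 of 423 promoter summits (14.9%, 11.6 to 18.7), against 123 of 358 autosomal summits outside promoters (34.4%, 29.4 to 39.5), at 46.8% and 47.6% mean GC. CATATG was at 2.13% of promoter summits and 6.43% of those outside promoters. Promoter peaks with CAGATG or CACATG had a median signal of 77.1, against 86.1 for those without, and 29 of the 63 were among the 560 strongest optimal peaks. Down the pooled list CAGATG or CACATG was at 14.9%, 16.9% and 13.3% of promoter summits in the 3 leading bins of 1120, so these classes did not mark the strongest bin. CAGATG was at 6 of 134 divergent peaks (4.48%, 1.66 to 9.49) and 30 of 285 single peaks (10.5%, 7.22 to 14.7), and these intervals overlap.

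Among peaks outside exons on chromosomes II to V, the strongest with these words belonged to mrck-1 (213), to the divergent pair of C16C10.4, whose product is a histone deacetylase complex subunit, and rnf-121, a ubiquitin ligase gene (166), to atad-3, which encodes a mitochondrial AAA ATPase (156), and to ccch-1, of the CCCH zinc finger type (156). CATATG was at sluh-7, Y32B12B.4, K11D12.11, F36F2.8 with F36F2.2, unc-76, ciao-2B, rpn-9 with T06D8.9, gcl-1, and coq-5 with ufm-1. Of these 9 peaks 2 also held CAGATG, namely K11D12.11 with a signal of 104 (50.2 in replicate 1 and 54.3 in replicate 2) and F36F2.8 with F36F2.2, with 98.1 (44.7 in replicate 1 and 53.3 in replicate 2).

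The word most concentrated at promoter summits was no E-box. Of all 2080 distinct 6-base words, GGCCTA had the lead over both flanks: it was at 75 summits (17.7%), against 1.18% of upstream and 2.13% of downstream flanks and 1.90% of all promoters. CTAGGC (16.1%, against 1.42% and 0.473% of the same flanks and 1.96% of all promoters) and GGCCAC (17.02%, against 1.89%, 2.60% and 1.82%) followed it. The first pair overlap in the 8-base word TGGCCTAG, which was written down after these counts had been seen, so its share is a description of these peaks. It was within 50 bp of 51 summits (12.1%, 9.11 to 15.6), against 0.236% of upstream flanks, 0.236% of downstream flanks, 0.821% of the other promoter candidates and 0.574% of all promoters. Among autosomal optimal peaks outside promoters 1.96% held it and among X chromosome promoter peaks 4.23%. At the other end of the order, CTGAAA was at 7.80% of summits, against 23.6% of upstream and 28.6% of downstream flanks and 16.4% of all promoters.

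TGGCCTAG was found in both promoter classes and in both replicates. It was at 21 of 134 divergent peaks (15.7%, 9.97 to 22.9) and 30 of 285 single peaks (10.5%, 7.22 to 14.7). The promoter candidates among the 1120 strongest held it at 11.3% in replicate 1 and 12.1% in replicate 2 (11.7% ± 0.547, SD, n = 2). In the next bin of 1120 the share was 2.10% in replicate 1 and 3.25% in replicate 2. The word was picked from the pooled peaks, and 291 of the 423 were matched by the strongest candidates of both replicates. The replicates and bins are therefore no separate test of it. Peaks with the word were stronger: their median pooled signal was 93.1, against 81.0 without it, with 43.1 against 38.04 in replicate 1 and 50.5 against 45.8 in replicate 2. Of the 51 peaks 38 (74.5%) were among the 560 strongest optimal peaks, though none was among the 20 strongest promoter peaks.

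The word sat close to the summit, in either orientation. At 39 of the 51 peaks the nearest copy was centred within 25 bp of the summit, and 30 copies read along the strand of the nearest gene against 21 on the other. The base after the word was A at 30 of 53 copies and the base after that at 37, and 28 copies were followed by both, as at sluh-7 and mog-3. A further GGCC was in the window of 34 of the 51 peaks (66.7%), and GGCC was in 119 of the 372 windows without the word (31.99%), against 10.9% of upstream flanks, 14.9% of downstream flanks and 8.40% of all promoters. It can be read at pfd-5, C49A9.10, eas-1 and mog-3 in the sequences above. An E-box of any class was in 47.1% of windows with the word and 45.2% of those without.

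**Figure D4:**
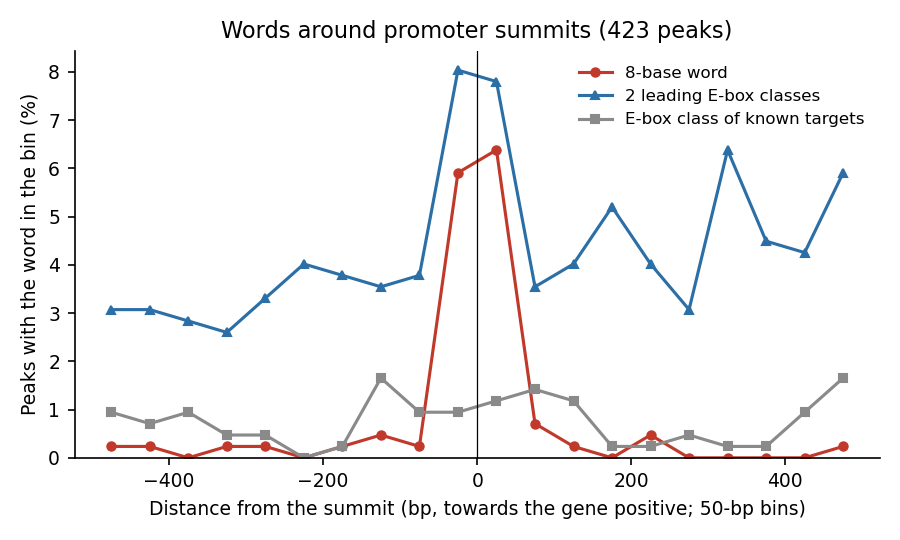
Share of the 423 autosomal promoter peaks with TGGCCTAG (8-base word), with CAGATG or CACATG (leading E-box classes) and with CATATG (class of known targets) in 50-bp bins by distance from the summit, positive towards the gene. TGGCCTAG reaches 5.91% and 6.38% in the bins beside the summit and at most 0.709% elsewhere, CAGATG or CACATG reaches 8.04% and 7.80% there and at most 6.38% elsewhere, and CATATG is at 0.946% and 1.18% there and at most 1.65% elsewhere.

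Most copies of the word had no peak. The autosomes hold 5509 copies, of which 54 (0.980%) were within 50 bp of a promoter peak summit. Among genes with 1 copy in their promoter window 82 of 413 (19.9%, 16.1 to 24.0) had a peak there, among genes with 2 or more 10 of 108 (9.26%, 4.53 to 16.4), and among genes with none 461 of 16721 (2.76%). Since the word was picked from these same peaks, that order is a description only. The 51 peaks lay in the windows of 72 genes. The strongest was at 174 in the divergent promoter of cux-7 and C07H6.2. It was followed by pfd-5, a prefoldin subunit gene (170.2, with 76.7 in replicate 1 and 91.9 in replicate 2), the pair of C47E8.4 and hsp-90, which encodes the cytosolic HSP90 chaperone (152, with 70.5 and 84.8), the pair F25H9.7 and F25H9.6 (149), and sluh-7, of a splicing factor (146, with 71.2 and 73.2). C49A9.10 (140.1), eas-1, which encodes a Golgi transport protein (136), and mog-3, of another splicing factor (131), came after these.

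Purine repeats formed a further group. GAGAGA was at 86 promoter summits (20.3%, 16.6 to 24.5), against 7.33% of upstream flanks, 4.26% of downstream flanks, 12.3% of the other promoter candidates and 7.88% of all promoters. It was at 18 of 134 divergent peaks (13.4%, 8.16 to 20.4) and 67 of 285 single peaks (23.5%, 18.7 to 28.9). The autosomal optimal peaks outside promoters held it more often, at 36.3%, and so did the X chromosome promoter peaks, at 33.8%. CGAGAG, which overlaps it in part, was at 17.5% of promoter summits, against 3.31% and 4.02% of flanks, 14.3% of peaks outside promoters and 3.22% of all promoters. ACGCGC was at 14.7%, against 1.42% and 1.18% of flanks, 4.47% of peaks outside promoters and 2.52% of all promoters.

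The peaks were in the windows of 553 of 17242 autosomal protein-coding genes, or 3.21%, of which 11 had 2 peaks. With the window of 250 bp upstream to 100 bp downstream the share was 2.11%. Genes with a head-to-head neighbour within 1000 bp had a peak at 317 of 3560 (8.90%, 7.99 to 9.89), and the other genes at 236 of 13682 (1.72%, 1.51 to 1.96). A summit in a shared gap counts for both genes, which adds to that difference. By chromosome the share was 4.31% on I, 3.31% on II, 4.58% on III, 2.71% on IV and 2.10% on V. Of the peaks 184 (43.5%) lay in the central one of 3 equal stretches of their chromosome, against 38.1% of autosomal protein-coding genes and 38.1% of the other promoter candidates. Genes with a peak had a median length of 2534 bp, against 1964 bp for all autosomal protein-coding genes, 45.03% had 2 or more transcripts, against 28.6%, and 31.8% were known by sequence name only, against 44.5%. A window was opened at every annotated 5′ end, so genes with several 5′ ends have more window bases. The rule can therefore add to the difference in transcripts.

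Genes of protein synthesis and folding had promoter peaks most often among the 34 lists. Translation factor genes had them at 9 of 39 (23.1%, 11.1 to 39.3), chaperone genes at 13 of 65 (11.1% to 31.8%) and cytosolic ribosomal protein genes at 14 of 80 (17.5%, 9.91 to 27.6), all with intervals above the 3.21% of all genes. The lists are rich in head-to-head genes, which are 23 of 39, 32 of 65 and 48 of 80 of them in that order, against 20.6% of autosomal genes. Within head-to-head genes, where 8.90% had a peak, translation factors had 7 of 23, chaperones 10 of 32 and ribosomal proteins 10 of 48. Among genes without such a neighbour, where 1.72% had one, they had 2 of 16, 3 of 33 and 4 of 32.

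Among translation factors the strongest peaks were at the initiation factor subunit genes eif-3.E (143, with 59.7 in replicate 1 and 83.4 in replicate 2) and eif-3.B (114, with 65.1 and 49.8), and at the release factor gene erfa-3 (93.8, with 49.6 and 44.1). Among chaperones pfd-5 and hsp-90 led, followed by the J-domain genes dnj-29 (120, with 61.8 and 60.3) and dnj-28 (111, with 42.7 and 70.3), and the list also held cct-1, cct-7 and cct-8 of the chaperonin complex. Ribosomal protein genes were led by rpl-3 and rps-24, with rpl-15 (164, with 77.8 and 87.8) and rpl-35 (131, with 52.2 and 71.4) next, and 9 of the 14 peaks were divergent. The median signal was 80.0 over the translation factor, 84.6 over the chaperone and 88.3 over the ribosomal protein genes with a peak, against 83.8 over all promoter peaks. Mitochondrial ribosomal protein genes had 2 of 70 (2.86%, 0.348 to 9.94), an interval that includes the 3.21% of all genes. These were mrpl-18 and mrps-35, both divergent and both with TGGCCTAG, which 15.7% of all divergent peaks held. The list does not count let-630, whose product is named small ribosomal subunit protein mS39. Its divergent peak, shared with hcp-6, also held TGGCCTAG. None of the 3 mitochondrial respiration genes with a peak had the word at it. The word was picked from these same peaks, so these cases are a description only.

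Other housekeeping lists, taken whole, lay above the background of all genes too. Nuclear pore and import genes had 6 of 40 (5.71% to 29.8%), led by npp-6 (125, with 49.9 in replicate 1 and 75.9 in replicate 2) and npp-8 (117, with 57.1 and 62.9). Cell cycle and replication genes had 13 of 111 (11.7%), led by mcm-10, of the replication machinery (144), and smc-3, which encodes a cohesin subunit (131). Chromatin regulators had 22 of 190 (11.6%), led by lin-35, the histone demethylase gene jmjd-1.2 (166, with 74.95 and 91.98) and hcp-6, of condensin (132). Vesicle trafficking genes had 13 of 122 (10.7%), and 11 of these had a head-to-head neighbour. The tRNA synthetase genes had 4 of 32 (12.5%), proteasome genes 4 of 33 (12.1%) and Pol II and Mediator genes 5 of 51 (9.80%), with lower bounds of 3.51%, 3.40% and 3.26%. Not all of those 5 have products named for Pol II or Mediator. The product of rpac-19 is named a subunit of RNA polymerases I and III. That of mdt-9 is named a guanine nucleotide exchange factor, and that of rpoa-12 an RNA polymerase subunit only. Head-to-head genes are more common in these 7 lists than the 20.6% of all autosomal genes. Within head-to-head genes, where 8.90% had a peak, nuclear pore genes had 4 of 20, cell cycle genes 8 of 44, chromatin regulators 12 of 91, vesicle genes 11 of 37, proteasome genes 3 of 22, Pol II and Mediator genes 2 of 13 and tRNA synthetase genes 1 of 12. Among genes without such a neighbour, where 1.72% had one, they had 2 of 20, 5 of 67, 10 of 99, 2 of 85, 1 of 11, 3 of 38 and 3 of 20 in the same order. The tRNA synthetase share within head-to-head genes, 8.33%, was below 8.90%, and the vesicle share without such a neighbour was 2.35%. No intervals were computed for these small counts, so they do not place each list above genes of the same kind. Histone genes among the chromatin list, his-67, his-68 and his-37, have near-identical copies elsewhere, and the labels do not say how reads matching several copies were placed.

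For splicing and RNA binding (4 of 72), nucleolus (3 of 35), cytoskeleton (5 of 66), ubiquitin ligases and proteases (8 of 113), kinases and phosphatases (4 of 63) and mitochondrial respiration (3 of 65) the interval included the background. Some splicing factor genes with a peak, among them sluh-7 and mog-3, are not in the splicing list. Its share therefore describes the list and not all splicing genes. Wnt signalling had 1 of 26, mig-5, a Dishevelled gene whose promoter it shares with cct-1, bHLH genes 1 of 31, hlh-11, at the window's edge, and homeobox genes 1 of 71, ceh-38. Other transcription factors had 2 of 93, mls-1 and zip-2, and neuronal genes 2 of 156, ric-3 and unc-76. The shares were 3.85% for Wnt, 3.23% for bHLH, 1.41% for homeobox, 2.15% for other transcription factor and 1.28% for neuronal genes. Each interval includes the 3.21% of all genes, with upper bounds of 19.6%, 16.7%, 7.60%, 7.55% and 4.55% in that order. The transcription factor list does not count daf-19, an RFX-like factor gene with a peak.

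Receptor and environmental gene families had almost no promoter peaks. None of 1282 chemoreceptor genes had one, which allows up to 0.287%. F-box and MATH genes had 2 of 427 (0.468%), C-type lectin and defence genes 1 of 320 (0.312%), detoxification genes 1 of 198 (0.505%), nuclear hormone receptor genes 2 of 246 (0.813%, 0.0986 to 2.91), namely nhr-64 and nhr-142, and epidermis and cuticle genes 1 of 169 (0.592%), col-71, whose divergent peak held TGGCCTAG. The epidermis interval, up to 3.25%, includes the background, and those of the other 4 families with a peak lie below it. Head-to-head genes make up 22.9% of the F-box and MATH list and 21.6% of the lectin list, close to the 20.6% of all autosomal genes, and 7.72% of the nuclear hormone receptors. Intestinal (0 of 20), germline (0 of 40), Notch (0 of 15) and FGF, Ras and MAP kinase genes (0 of 17) had none, with upper bounds of 16.8%, 8.81%, 21.8% and 19.5%, so these lists are too short to tell them from the background. Their counts describe the lists and not all genes of these classes, germline genes included.

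**Figure D5:**
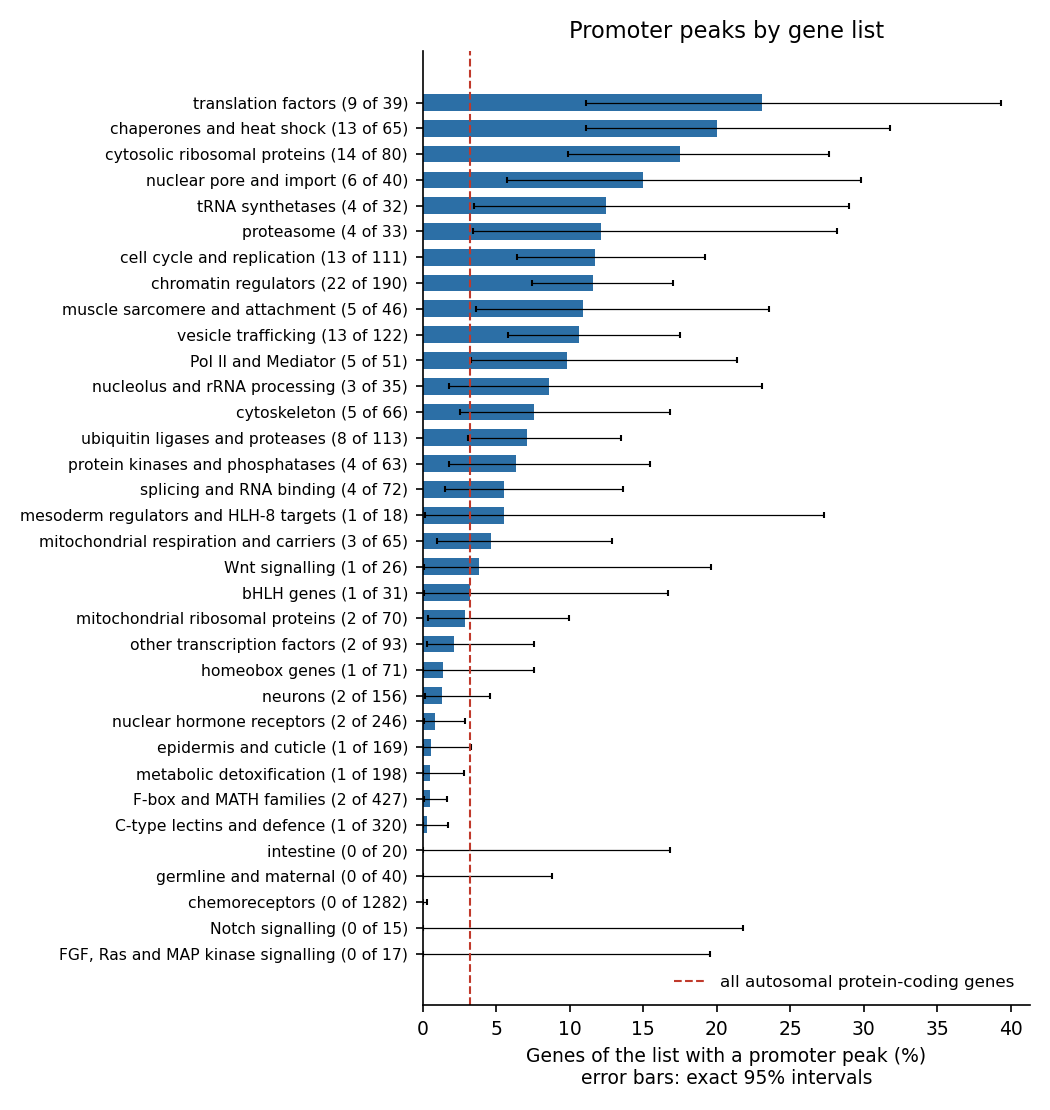
Share of autosomal genes of each of the 34 lists with a promoter peak, with exact 95% binomial intervals, and the 3.21% of all 17242 autosomal protein-coding genes (dashed). Translation factors, chaperones and cytosolic ribosomal proteins are highest, at 9 of 39, 13 of 65 and 14 of 80, and 5 lists are at 0.

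Of 18 autosomal mesoderm regulators and HLH-8 targets 1, mls-1, had a promoter peak (5.56%, 0.141 to 27.3), 117 bp upstream, with a signal of 81.0, 35.5 in replicate 1 and 44.98 in replicate 2, and with CAGATG in its window. It encodes the T-box factor of uterine muscle, and its signal was just below the 83.8 median of all promoter peaks. The interval of this short list includes the 3.21% of all genes. Muscle sarcomere and attachment genes had 5 of 46 (10.9%, 3.63 to 23.6), an interval above the 3.21% of all genes, and head-to-head genes are 6.52% of that list. These were pat-10, which encodes a troponin C, with 117 (51.98 in replicate 1 and 64.05 in replicate 2) 98 bp downstream of its 5′ end in an exon and CAGATG in the window, sup-9, of a potassium channel subunit, with 81.0 (40.6 and 39.9), unc-89, the obscurin homologue, with 77.2 (44.9 and 32.1) at the stronger of its 2 peaks, unc-112, the kindlin homologue, with 67.8 (28.5 and 38.2), and unc-60, of actin depolymerising factors, with 62.5 (39.4 and 25.4). CAGATG was also in the windows of sup-9 and of both peaks of unc-89. The windows of unc-112 and unc-60 held no E-box. Over all promoter peaks 8.51% held CAGATG, and a link of that word to muscle genes was not tested. Among genes without a head-to-head neighbour 3 of 43 muscle genes had a peak (6.98%), against 1.72% of all such autosomal genes. Among those with such a neighbour 2 of 3 had one. No intervals were computed for these small counts, so they do not place muscle genes above other genes of the same kind.

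Genes were also counted by words in their RefSeq product names. The words were chosen after genes with a peak had been seen, so these counts are a description and support nothing above. Products naming the Golgi, the endoplasmic reticulum or vesicles had a peak at 12 of 96 genes (12.5%), those naming tRNA at 10 of 81 (12.3%), RNA binding, helicases or splicing at 20 of 207 (9.66%), mitochondria at 19 of 215 (8.84%) and transcription or chromatin at 23 of 316 (7.28%). Products naming ubiquitin had 10 of 150 (6.67%, 3.24 to 11.9). The mitochondrial and the RNA-binding words gave higher shares than the respiration, mitochondrial ribosome and splicing lists, whose intervals included the background. Kinases and phosphatases were at 25 of 709 (3.53%), close to the 3.21% of all genes. Zinc finger products were at 4 of 217 (1.84%) and receptors at 8 of 1949 (0.411%, 0.177 to 0.807).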

How the data were processed

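HLH-8 ChIP-seq was analysed from 2 replicates of 1 group. Per the deposited file inventories, candidate peaks were called for each replicate and on both replicates together, and the IDR step made the optimal list. Which aligner and caller were used is not stated in the labels or files used here. The signal of each peak, its −log10 q value and its summit offset are the authors' own deposited values. The −log10 q was equal at all 1120 optimal peaks, so peaks were ranked by signal. Read depth is unknown. The ce10 lists were not used.

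Summits on ce11 were set against Ensembl release 115 genes and RefSeq sequence of the same assembly with Python 3.11.15, numpy 2.4.6 and scipy 1.17.1, and plots with matplotlib 3.10.9. A replicate peak matched with its summit within 200 bp. Words were counted in 101-base windows at summits, in flanks centred 500 bp away, and, for all promoters, 166 bp upstream of each gene's outermost 5′ end. Shares have exact 95% Clopper-Pearson intervals. The scripts were tested on simulated data.

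Named were the genes of the 20 strongest peaks and of the 3 strongest of each class, up to 4 per list with the strongest peaks, those at the window's edges, with the most unequal replicates and with CATATG. The peaks and lists were chosen with earlier results of these data known. Some lists leave out genes of their class. Genes named beyond the rule, where a list has few peaks, were chosen after their values were seen.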

Additional observations from a re-analysis of the deposited data

How the results depend on the processing

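Of 49 alternatives to the main values, 26 were counted as the same and 23 as moved. For the number of peaks, the same meant within 1.5 times 423, which held under all 4 alternatives (301 to 522). For the other values it meant within the counting interval or the spread between replicates. With the window of 250 bp upstream to 100 bp downstream the divergent share was 19.6%, the log2 signal difference of divergent minus single peaks 0.0172 and the share of genes with a peak 2.11%. With 1000 bp upstream they were 38.3%, 0.0886 and 4.22%, and with divergent 5′ ends within 1000 bp the share was 41.4% and the difference 0.02002. That difference was 0.0308 from replicate 1 signals and 0.0199 to 0.0371 with a replicate left out, all of the other sign than the main -0.03. The divergent share of other candidates, an alternative chosen after seeing the data, was 6.21%, 14.9% and 17.2% under these 3 settings. Mean GC was 46.5% at the 238 promoter peaks among the 560 strongest optimal peaks, 45.9% to 46.2% with a replicate left out, 50.5% within 25 bp and 41.96% within 100 bp. The median position was -172 to -165 bp with a replicate left out. Within 25 bp CAGATG was at 4.97% and CACATG at 4.49%. Within 100 bp CAGATG was at 11.8%, CACATG at 10.4% and CATATG at 4.49%. Upstream flanks 1000 bp away held CAGATG at 6.15% rather than 1.89%, so its lead over the flanks depends on the flank, and downstream flanks there held CATATG at 1.65%. With 2240 candidates from each replicate 95.04% of the peaks were found in both. Unknown depth limits any statement on single signals. No paired analysis was possible because the replicates form 1 group.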
